A study of Mus musculus with 4 samples.

Results

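Amino acid transporters of 6 solute carrier families were examined in differentiating mouse embryonic stem cells. Members were taken by gene symbol: Slc1a, Slc3a, Slc7a, Slc36a, Slc38a or Slc43a followed by a number. Of 26985 gene symbols in the files, 45 matched. Of these, 42 are members of the families themselves, and 3 (Slc7a6os, Slc36a1os and Slc36a3os) are genes on the strand opposite to a transporter or beside it, which are kept apart. The cells were 2 libraries of day 6 and 2 libraries of day 4 of LIF withdrawal, all of the wild-type embryonic stem cell line CJ9 (strain 129S4/SvJae), titled as Cas9 only. LIF is the cytokine that keeps mouse embryonic stem cells undifferentiated. The series concerns the Evx1as/Evx1 locus. The comparison is day 6 against day 4 in cells with the locus intact, and cells lacking it were not analysed here. The medium held serum and added non-essential amino acids in all 4 libraries. The time entry, the title and the harvest text of each library give the same day, but the culture text gives another duration for 3 of the 4 libraries.

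Cells take up amino acids through carriers of overlapping substrate range. SLC1 members move glutamate and small neutral amino acids with sodium. SLC7 members are either cationic amino acid carriers that act alone or light chains that need a heavy chain of the SLC3 family to reach the membrane and mostly exchange one amino acid for another. SLC38 members load small neutral amino acids and glutamine with sodium, SLC36 members move amino acids with protons, and SLC43 members let neutral amino acids pass without an ion gradient. Several SLC36 and SLC38 members sit on lysosomes, where amino acid release is read by the mTORC1 growth pathway. Embryonic stem cells are rapidly dividing cells with a high demand for amino acids, and genes such as Slc7a5, Slc3a2 and Slc7a11 are known targets of the amino acid response factor ATF4.

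Levels are in FPKM, which scales mapped fragments to the length of a transcript and the size of a library, and were added up over the transcripts of a gene. From the width of the deposited intervals, depth was estimated at 6500000 and 5770000 fragments for day 6 replicates 1 and 2, against 3740000 and 3640000 for day 4 replicates 1 and 2, so low genes are less precise at day 4. The 2 day 4 libraries stood apart from each other. Their log2 values correlated at 0.671 across 11716 genes, against 0.981 for the day 6 libraries. Day 4 replicate 2 was shifted towards GC-rich transcripts: relative to day 4 replicate 1, its median log2 difference was -1.55 for genes under 45% GC and 0.83 for genes of 55 to 60% GC. Whether replicates are separate cultures is not stated, so a p-value here sets the days against the distance between libraries alone, and that distance may be technical. Pou5f1 (Oct4), the defining factor of pluripotent cells, was present in all 4 libraries, at 54.9 and 42.0 FPKM at day 6, against 368 and 376 FPKM at day 4.

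Of the 42 transporter genes, 22 had a mean of at least 1 FPKM over the 4 libraries and were tested. Another 8 were listed at 0 in all 4 libraries, and 12 lay between. The summed level of the 42 genes was 537 and 569 FPKM in day 6 replicates 1 and 2, against 447 and 449 FPKM in day 4 replicates 1 and 2, which is 0.108 and 0.114% of all FPKM at day 6, against 0.0991 and 0.0862% at day 4. Its make-up differed between the days. SLC38 genes held 49.7 and 49.7% of it at day 6, against 28.7 and 21.3% at day 4, and SLC7 genes held 28.9 and 28.5% at day 6, against 42.3 and 54.2% at day 4. The SLC7 share of day 4 replicate 2 rests largely on Slc7a5. That gene alone was at 207 of the 449 FPKM there, against 61.1 of the 447 FPKM in day 4 replicate 1.

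No transporter gene passed the test (limma on log2(FPKM + 1), adjusted over all 11716 genes, threshold 0.05; smallest adjusted p = 0.274). No gene of the 11716 passed either (0% called higher and 0% called lower), while 1793 genes, 15.3%, had an unadjusted p under 0.05, among them 4 transporter genes. The 22 genes are therefore described by their values and by whether the days overlap. Of the 22, 9 were higher in each day 6 library than in either day 4 library, where 41.6% of all genes tested were so. At the lower end, 3 were lower in each day 6 library, where 11.5% of all genes tested were so. Both shares, 40.9% and 13.6% of the transporter genes, lie near those of all genes, so neither count is a result about the transporters as a set. Their median log2 difference was 0.62, beside 0.51 for all genes tested. Centring each library on its median moved the median of all genes to -0.12, with 20.3% of all genes then higher and 26.4% lower without overlap, and 6 and 5 of the transporter genes. Correcting for GC content moved it to 0.00, with 27.3% higher and 27.8% lower, and 6 and 6 of the transporter genes. A difference below is therefore set against these medians. In bulk samples, fewer cells of a type and less RNA per cell cannot be told apart.

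**Figure D1:**
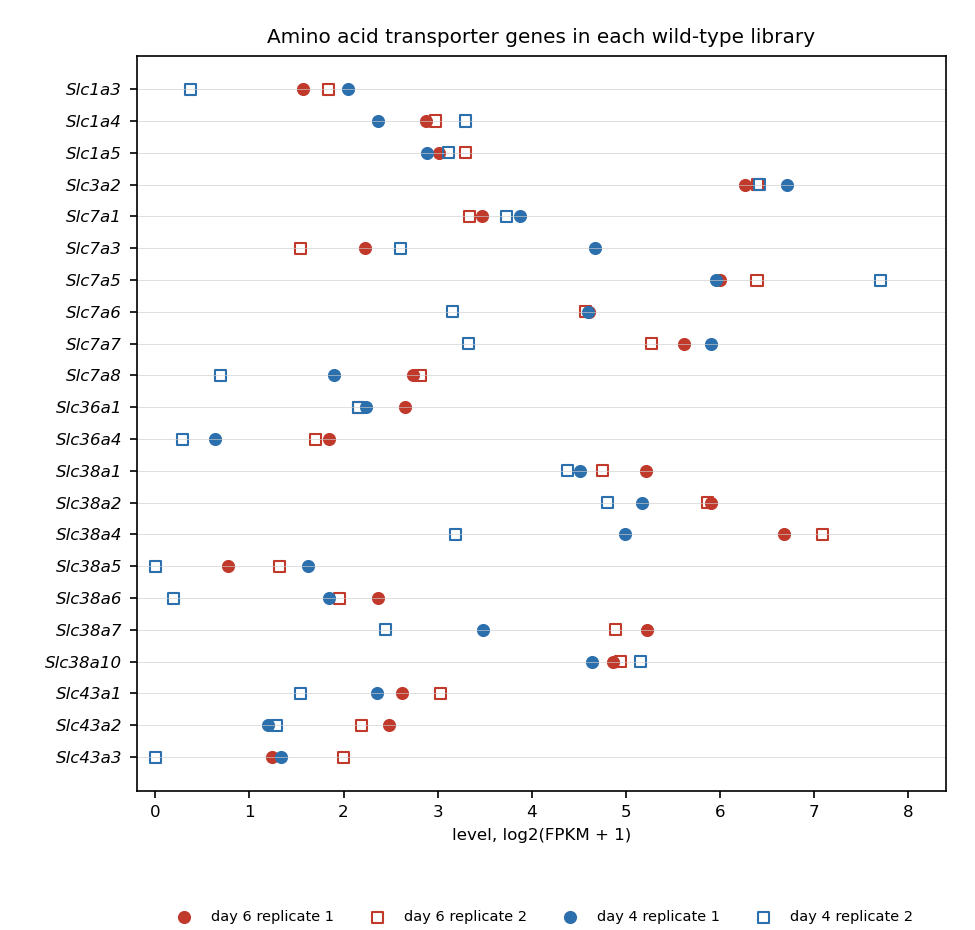
Level of each of the 22 transporter genes tested, as log2(FPKM + 1), in the 2 day 6 libraries (red) and the 2 day 4 libraries (blue); filled circles are replicate 1 and open squares replicate 2. The red symbols of Slc38a4 and Slc38a7 lie to the right of both blue symbols, those of Slc7a3 to the left, and the blue square of day 4 replicate 2 stands alone for Slc7a5 and Slc7a7.

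The sodium-coupled SLC38 carriers included the 2 largest differences among the 22 transporter genes tested. Slc38a4 (SNAT4), a system A carrier of small neutral amino acids and an imprinted gene read mainly from the paternal copy in many mouse tissues, was at 101 and 135 FPKM in day 6 replicates 1 and 2, against 30.9 and 8.13 FPKM in day 4 replicates 1 and 2. Both day 6 libraries lay above both day 4 libraries, and at day 6 it was the transporter gene with the highest level in each library. It averaged 118 ± 23.9 FPKM at day 6, against a day 4 mean of 19.5 ± 16.1 FPKM (SD, n = 2 each). The log2 difference was 2.79 with a standard error of 0.76 (limma, adjusted p = 0.284). Without day 4 replicate 2 it was 1.89 and without day 4 replicate 1 it was 3.69. After centring it was 2.16 and after the GC correction 2.21. Its transcript (NM_027052) has 43.4% GC, and the day 4 libraries differed by -1.80 log2 units for it, where genes under 45% GC had a median of -1.55.

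Slc38a2 (SNAT2), the system A carrier that cells induce when amino acids are short, showed the same order at a smaller size. It was at 58.8 and 57.4 FPKM at day 6, against 35.1 and 26.9 FPKM at day 4. Slc38a1 (SNAT1), a system A carrier of glutamine, was at 36.1 and 26.0 FPKM at day 6, against 21.8 and 19.9 FPKM at day 4. The days do not overlap for either gene. The log2 differences were 0.90 ± 0.44 for Slc38a2 and 0.53 ± 0.45 for Slc38a1 (± standard error). That of Slc38a2 was 0.27 after centring and 0.28 after the GC correction, where its days overlapped. That of Slc38a1 was -0.09 after centring, -0.20 after the GC correction and -0.10 when its highest transcript was used in place of the sum. Its transcripts differed in order. NM_001166456 was at 16.4 and 9.63 FPKM at day 6, against 7.44 and 0.00 FPKM at day 4. NM_001166458 was at 10.3 and 8.44 FPKM at day 6, against 11.7 and 15.8 FPKM at day 4, the other way round. Like NM_001166456, NM_134086 was higher at day 6, at 9.3 and 7.91 FPKM, against 2.72 and 4.12 FPKM at day 4.

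These 3 system A genes are neighbours. Slc38a1, Slc38a2 and Slc38a4 lie in that order on the minus strand of chromosome 15, from position 96571418 of the first to 97055956 of the last in mm10, with 44.5 kb between the first pair and 295 kb between Slc38a2 and Slc38a4. Their summed level was 196 and 219 FPKM at day 6, against 87.8 and 54.95 FPKM at day 4. Slc38a4 made up 51.6 and 61.8% of that sum at day 6, against 35.2 and 14.8% at day 4. Slc38a2 and Slc38a4 are close in GC content (43.9 and 43.4%), and their ratio needs no scaling between libraries. Even so, day 4 replicate 2 minus replicate 1 was -0.37 log2 units for Slc38a2 and -1.80 for Slc38a4. Whether the ratio carries a technical difference between libraries was not tested. There were 1.72 and 2.35 Slc38a4 FPKM per Slc38a2 FPKM at day 6, against 0.88 and 0.30 at day 4. The ratio was above 1 in both day 6 libraries and below 1 in both day 4 libraries, and 2 libraries against 2 cannot give an exact two-sided permutation p below 0.333.

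Slc38a7 (SNAT7), which exports glutamine from lysosomes, was at 36.4 and 28.7 FPKM at day 6, against 10.1 and 4.43 FPKM at day 4. The gene lies on the minus strand at chr8:95835923-95853491 (mm10). The day 6 values lie above both day 4 values, and their deposited intervals (33.0 to 38.7 and 25.7 to 31.3 FPKM) do not reach those of day 4 (8.4 to 11.9 and 3.37 to 5.48 FPKM). These intervals cover counting error only. It averaged 32.6 ± 5.48 FPKM at day 6, against a day 4 mean of 7.29 ± 4.03 FPKM (SD, n = 2 each). The log2 difference was 2.10 with a standard error of 0.55 (limma, adjusted p = 0.274), and 1.58 without day 4 replicate 2. It was 1.47 after centring and 1.61 after the GC correction. Its transcript has 55.2% GC and was 1.04 log2 units lower in day 4 replicate 2 than in day 4 replicate 1, where genes of 55 to 60% GC were 0.83 higher at the median.

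The other 3 SLC38 genes tested were Slc38a10, Slc38a6 and Slc38a5. Slc38a10 was at 28.2 and 29.7 FPKM at day 6, inside the 23.9 and 34.6 FPKM of day 4. Slc38a6 was at 4.17 and 2.87 FPKM at day 6, against 2.58 and 0.141 FPKM at day 4. Its days do not overlap, but day 6 replicate 2 and day 4 replicate 1 are close together. Its log2 difference was 1.15 with a standard error of 0.68, and 0.52 after centring, where its days overlapped. Slc38a5 (SNAT5), a system N carrier of glutamine, was at 0.712 and 1.49 FPKM at day 6, against 2.07 FPKM in day 4 replicate 1 and a listed 0 in replicate 2. Of the 7 tested SLC38 genes, 5 were higher without overlap and 0 were lower, beside 41.6% and 11.5% of all genes tested. After centring 3 were higher and 1 was lower, beside 20.3% and 26.4%.

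The sequence just before the start of a gene is shown for genes with a mean over 10 FPKM and a RefSeq entry. Only genes whose days do not overlap were taken, 3 that were higher (Slc38a2, Slc38a4, Slc38a7) and 2 that were lower (Slc3a2, Slc7a1). The part of promoters in these differences was not tested. Each run is the 250 bases before the RefSeq start (GRCm38.p6, the assembly of mm10), 5′ to 3′ on the strand of the gene. For Slc3a2 the start is that of NM_008577, whose own days overlap, unlike the sum of the gene. For Slc38a2 the start lies 30 bases before the one in the files. Capitals mark GGGCGG, the GC box bound by Sp1-type factors, or CACGTG, the E-box bound by MYC and TFEB-type factors, on either strand.
Slc38a2 promoter, chr15:96699729-96699978, minus strand: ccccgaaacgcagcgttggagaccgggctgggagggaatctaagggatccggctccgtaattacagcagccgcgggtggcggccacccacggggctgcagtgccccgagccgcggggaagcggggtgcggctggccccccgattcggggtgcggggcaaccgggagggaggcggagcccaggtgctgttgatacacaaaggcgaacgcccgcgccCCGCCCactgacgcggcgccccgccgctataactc
Slc38a4 promoter, chr15:97055957-97056206, minus strand: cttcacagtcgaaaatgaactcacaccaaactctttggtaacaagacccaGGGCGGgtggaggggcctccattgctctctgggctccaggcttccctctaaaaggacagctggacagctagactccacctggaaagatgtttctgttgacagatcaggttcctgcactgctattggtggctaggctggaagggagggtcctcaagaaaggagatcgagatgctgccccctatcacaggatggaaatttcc
Slc38a7 promoter, chr8:95853492-95853741, minus strand: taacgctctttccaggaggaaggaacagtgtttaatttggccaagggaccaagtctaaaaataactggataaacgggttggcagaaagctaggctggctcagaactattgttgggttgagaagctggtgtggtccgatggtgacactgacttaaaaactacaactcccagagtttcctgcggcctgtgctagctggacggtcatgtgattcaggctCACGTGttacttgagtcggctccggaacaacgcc
Slc3a2 promoter, chr19:8713898-8714147, minus strand: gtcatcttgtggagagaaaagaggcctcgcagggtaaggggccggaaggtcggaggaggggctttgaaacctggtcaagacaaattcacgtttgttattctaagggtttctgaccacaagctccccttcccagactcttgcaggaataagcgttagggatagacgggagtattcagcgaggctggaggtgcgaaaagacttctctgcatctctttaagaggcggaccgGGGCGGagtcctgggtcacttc
Slc7a1 promoter, chr5:148399905-148400154, minus strand: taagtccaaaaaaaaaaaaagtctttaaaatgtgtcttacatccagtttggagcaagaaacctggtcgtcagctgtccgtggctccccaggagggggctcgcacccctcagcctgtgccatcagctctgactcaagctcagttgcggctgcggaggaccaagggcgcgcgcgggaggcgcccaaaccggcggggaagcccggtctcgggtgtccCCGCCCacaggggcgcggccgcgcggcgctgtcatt

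Slc38a7 holds 1 E-box, starting 34 bases before the gene. The 31 transporter genes with an entry have 42 windows of this length, of which 7 hold CACGTG (6.02% of all 32851 windows do) and 25 hold GGGCGG (32.7% of all windows do). The core of the amino acid response element, TGATGNAA on either strand, was found in 3 of the 42 windows, those of Slc7a11 and Slc7a7, and in 3.45% of all windows. Of the 22 transporter genes tested, 17 have a window. Slc7a5, Slc7a3, Slc1a5 and Slc38a1 have none and were not searched, and neither was sequence inside any gene. The 3 sets of letters do not overlap one another in the 5 windows shown. The windows of Slc3a2 and Slc7a1 hold a GC box, as do those of Slc38a2 and Slc38a4, and that of Slc38a7 holds none. These matches describe letters and not binding.

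Slc3a2 and Slc7a5 held the 2 highest transporter levels in each day 4 library. Slc3a2 (CD98, 4F2hc), the heavy chain that carries 6 SLC7 light chains to the membrane, was at 76.1 and 83.4 FPKM at day 6, against 104 and 85.0 FPKM at day 4. The days do not overlap, but day 6 replicate 2 and day 4 replicate 2 are close together, and on a TPM scale they overlapped. It averaged 79.8 ± 5.16 FPKM at day 6, against a day 4 mean of 94.3 ± 13.2 FPKM (SD, n = 2 each), a log2 difference of -0.23 with a standard error of 0.45. It was -0.86 after centring and -0.72 after the GC correction. Of its 2 transcripts, the main one (NM_008577) was at 66.0 and 73.4 FPKM at day 6, against 104 and 65.2 FPKM at day 4, which overlap. The other (NM_001161413) was at 10.1 and 10.04 FPKM at day 6, against 0.00 and 19.8 FPKM in day 4 replicates 1 and 2. The second heavy chain, Slc3a1 (rBAT), the partner of Slc7a9 in kidney and gut, was under the filter.

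Slc7a5 (LAT1), the light chain that takes up leucine and other large neutral amino acids, was at 63.2 and 83.1 FPKM at day 6, against 61.1 and 207 FPKM at day 4. The gene lies on the minus strand at chr8:121881146-121907686. Both day 6 libraries lie within the day 4 range, and the single high value is day 4 replicate 2. The log2 difference was -0.63 with a standard error of 0.75 (limma, adjusted p = 0.697), but 0.24 without that library and -1.50 without day 4 replicate 1. It was -1.26 after centring, and -1.04 after the GC correction, where both day 6 libraries lay below both day 4 libraries. At 56.3% GC its day 4 libraries differed by 1.75 log2 units, beside a median of 0.83 for genes of 55 to 60% GC. How much of the Slc7a5 gap goes with GC content was not tested.

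Slc7a7 (y+LAT1), which exports cationic amino acids in exchange for neutral ones, showed the opposite gap. It was at 48.2 and 37.6 FPKM at day 6, against 58.8 and 9.06 FPKM at day 4, so that day 4 replicate 1 was above both day 6 libraries and day 4 replicate 2 below both. Its transcript NM_011405 was at 25.2 and 17.9 FPKM at day 6, against 35.1 FPKM in day 4 replicate 1 and 0.00 FPKM in day 4 replicate 2. Slc7a6 (y+LAT2), its relative with a similar exchange, was at 23.4 and 22.8 FPKM at day 6, against 23.2 and 7.92 FPKM at day 4. In 3 of the 4 libraries its value lay between 22.8 and 23.4 FPKM, and day 4 replicate 2 stood apart. Slc7a8 (LAT2), a light chain with a broad range of neutral substrates, was at 5.69 and 6.05 FPKM at day 6, against 2.72 and 0.612 FPKM at day 4. It was the 1 light chain whose days do not overlap, with a log2 difference of 1.49 and a standard error of 0.56 (limma, adjusted p = 0.329), and 0.88 without day 4 replicate 2. It was 0.86 after centring and 0.82 after the GC correction.

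Set side by side, the 6 light chains that use Slc3a2 summed to 141 and 150 FPKM at day 6, against 150 and 225 FPKM at day 4. Per FPKM of Slc3a2 that is 1.85 and 1.80 at day 6, against 1.45 and 2.65 at day 4, which overlap. Slc7a5 made up 44.9 and 55.5% of the sum at day 6. In day 4 replicate 1 it made up 40.7%, and in day 4 replicate 2 it made up 92.2%. Slc7a8 made up 4.04 and 4.04% at day 6, against 1.82 and 0.27% at day 4.

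**Figure D2:**
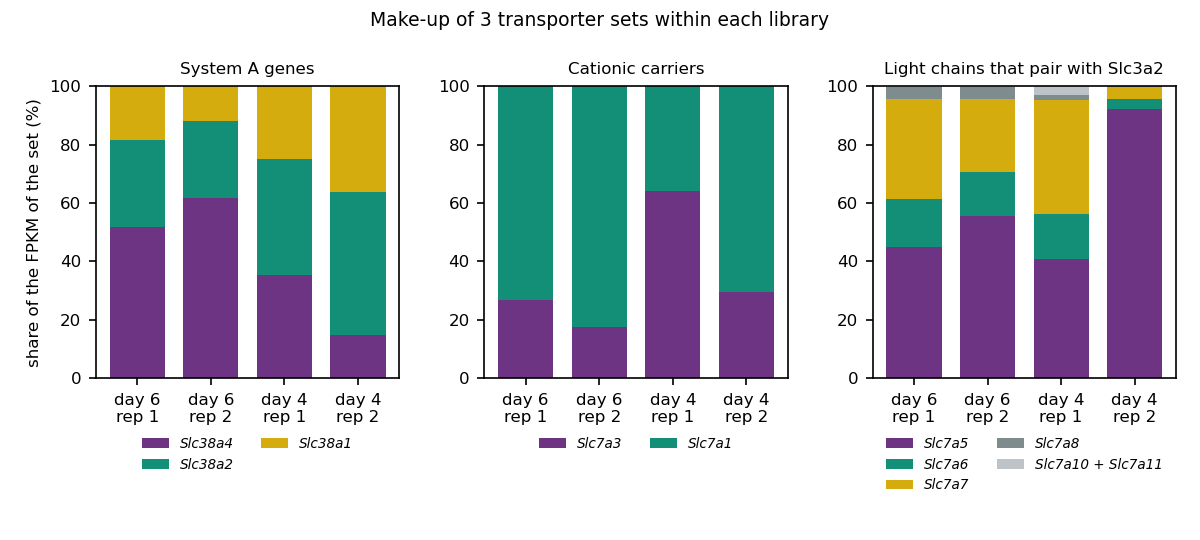
Share of the FPKM of 3 transporter sets held by each gene, in percent, within each of the 4 libraries; no scaling between libraries enters. Slc38a4 holds 51.6 and 61.8% of the system A genes at day 6, against 35.2 and 14.8% at day 4, while the light chains of day 4 replicate 2, at 92.2% Slc7a5, differ from those of the other 3 libraries.

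The 2 tested cationic carriers that act alone were lower in each day 6 library than in either day 4 library. Slc7a3 (CAT3), a carrier of arginine and lysine known from brain and encoded on the minus strand at chrX:101079221-101085352, was at 3.68 and 1.92 FPKM at day 6, against 24.5 and 5.10 FPKM at day 4. Both day 6 values lie below both day 4 values, with the largest distance to day 4 replicate 1. It averaged 2.80 ± 1.24 FPKM at day 6, against a day 4 mean of 14.8 ± 13.7 FPKM (SD, n = 2 each). The log2 difference was -1.75 with a standard error of 0.84 (limma, adjusted p = 0.395). It was -2.78 without day 4 replicate 2, and -0.72 without day 4 replicate 1. After centring it was -2.38 and after the GC correction -2.48. Slc7a1 (CAT1), the widely expressed cationic carrier, was at 10.1 and 9.09 FPKM at day 6, against 13.7 and 12.2 FPKM at day 4. Its days do not overlap and its libraries were close within each day, at a log2 difference of -0.40 with a standard error of 0.42. It was -1.03 after centring and -1.11 after the GC correction. Slc7a3 made up 26.7 and 17.5% of the sum of these 2 genes at day 6, against 64.1 and 29.4% at day 4.

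Of the SLC1 family, 3 genes were tested and the days of all 3 overlapped. Slc1a5 (ASCT2), a sodium-dependent exchanger of glutamine and other neutral amino acids, was at 7.08 and 8.85 FPKM at day 6, against 6.39 and 7.69 FPKM at day 4. Slc1a4 (ASCT1), its relative for alanine, serine and cysteine, was at 6.33 and 6.90 FPKM at day 6, between the 4.15 and 8.82 FPKM of day 4. Slc1a3 (GLAST), the glutamate carrier of astroglia, was at 1.96 and 2.59 FPKM at day 6, against 3.14 and 0.293 FPKM at day 4. The log2 differences of these 3 genes lay between 0.10 and 0.49, and all were below 0 after centring and after the GC correction.

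Among the SLC36 and SLC43 genes, the days were apart by FPKM for Slc36a4, Slc43a1 and Slc43a2. Slc36a4 (PAT4), a high-affinity carrier of proline and tryptophan, was at 2.60 and 2.26 FPKM at day 6, against 0.549 and 0.223 FPKM at day 4. Slc43a2 (LAT4), a facilitator of branched-chain amino acids and phenylalanine, was at 4.57 and 3.56 FPKM at day 6, against 1.29 and 1.44 FPKM at day 4. Both are low genes. Their log2 differences were 1.32 ± 0.37 (limma, adjusted p = 0.288) and 1.09 ± 0.39 (adjusted p = 0.318), which the added pseudocount makes smaller than the ratio of the levels. After centring they were 0.69 for Slc36a4 and 0.47 for Slc43a2, and after the GC correction 0.73 and 0.46, without overlap in either. Slc43a1 (LAT3), with a similar substrate range, was at 5.17 and 7.16 FPKM at day 6, against 4.12 and 1.90 FPKM at day 4. Its log2 difference of 0.88 was 0.25 after centring, 0.28 after the GC correction and 0.41 with its highest transcript, and its days overlapped in each of these. Slc36a1 (PAT1), a proton-coupled carrier of the lysosome and the gut, was at 5.27 and 3.46 FPKM at day 6, against 3.71 and 3.48 FPKM at day 4, which overlap. Slc43a3, a purine nucleobase carrier despite its family, was at 1.36 and 3.01 FPKM at day 6, against 1.52 FPKM in day 4 replicate 1 and a listed 0 in day 4 replicate 2.

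**Figure D3:**
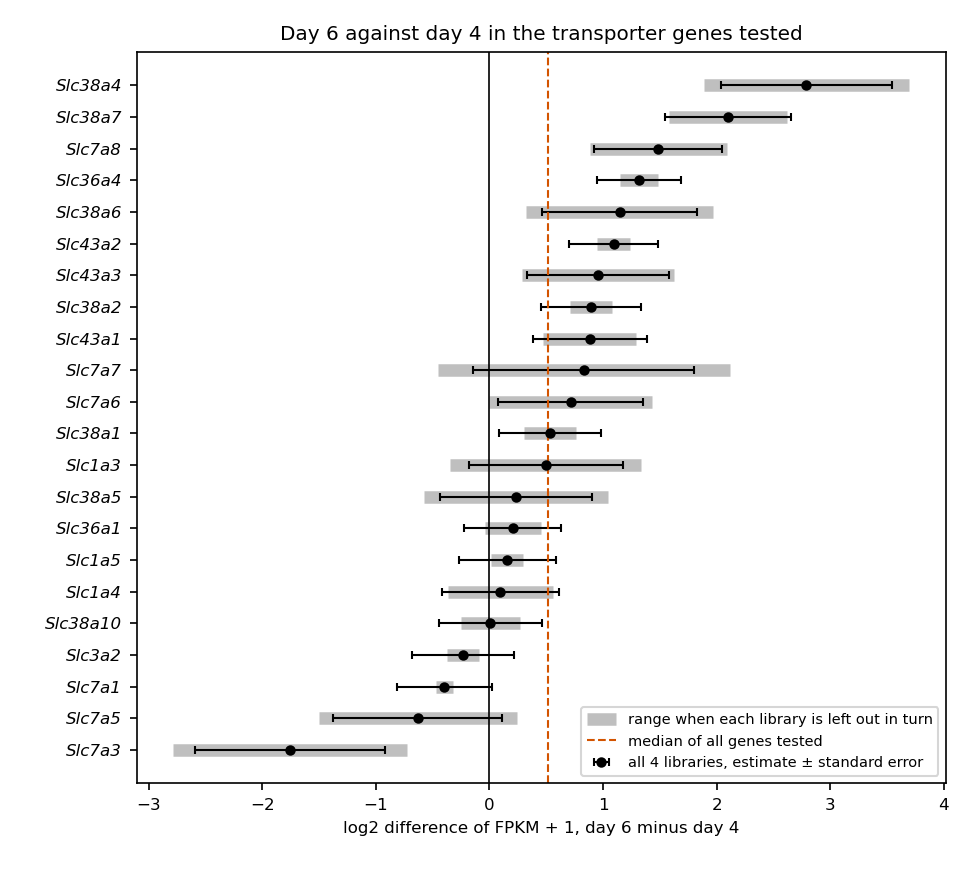
Log2 difference of FPKM + 1, day 6 minus day 4, for the 22 transporter genes tested. Black points and bars are the estimate and its standard error from all 4 libraries, grey bars are the range when each library is left out in turn, and the dashed line is the median of all genes tested, 0.51. Slc38a4 and Slc38a7 lie farthest to the right and Slc7a3 farthest to the left, and the grey bars of Slc7a5 and Slc7a7 are among those that cross 0.

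The 12 genes under the filter but above 0 in at least 1 library reached 3.51 FPKM at most. The highest is Slc7a11 (xCT), the light chain that imports cystine for glutathione synthesis, named here after its values were seen. It was at 0.200 and 0.152 FPKM at day 6, against 3.51 FPKM in day 4 replicate 1 (deposited interval 2.97 to 4.05) and a listed 0 in day 4 replicate 2, so that 1 day 4 library decides its level. Slc38a9, the lysosomal arginine sensor of mTORC1, also named after its values were seen, was at 1.17 and 0.775 FPKM at day 6, against 1.41 FPKM and a listed 0 at day 4. Among these 12 genes, 4 (Slc1a1, Slc1a2, Slc3a1 and Slc7a2) were higher in each day 6 library than in either day 4 library. Each is listed at 0 in day 4 replicate 2, a library of lower estimated depth. The share of all genes under the filter with this order was not computed, so the count is not a result about the transporters. Slc1a1 (EAAC1), a glutamate carrier, was at 1.45 and 0.616 FPKM at day 6, against 0.110 FPKM and a listed 0 at day 4. The same order held for Slc3a1, at 1.59 and 0.697 FPKM at day 6 against 0.182 FPKM and a listed 0 at day 4. The 8 genes listed at 0 throughout were Slc1a7, Slc7a12, Slc7a13, Slc7a15, Slc36a2, Slc36a3, Slc38a8 and Slc38a11. The number of transporter genes at 1 FPKM or more was 24 and 23 in the day 6 libraries, against 23 and 19 in the day 4 libraries. For all gene symbols it was 11839 and 11705 in day 6 replicates 1 and 2, against 11205 and 9449 in day 4 replicates 1 and 2. The lower count of day 4 replicate 2 is thus not particular to the transporters. Of the genes kept apart, Slc7a6os, which codes for another kind of protein and lies 1.73 kb from Slc7a6 on the other strand, was at 20.3 and 22.8 FPKM at day 6, inside the 14.0 and 32.1 FPKM of day 4.

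The replicates of the transporter genes lay farther apart at day 4 than at day 6. The median distance between the replicates of a day was 0.31 log2 units at day 6 and 0.98 at day 4 for the 22 genes, and 0.19 at day 6 and 1.07 at day 4 for all genes tested. Of the 22, 17 were lower in day 4 replicate 2 than in day 4 replicate 1, and 11 differed by more than 1 log2 unit between them, against 0 between the day 6 libraries. Across the 22 genes, which share both libraries, this day 4 difference followed GC content with a Spearman rho of 0.60 (Pearson r 0.46), beside a rho of 0.64 across 11370 genes. Slc7a5 and Slc38a10 were among the GC-rich genes that were higher in day 4 replicate 2. Slc38a7 (-1.04) and Slc3a2 (-0.28) were lower there, where genes of their GC range had a median of 0.83. The part of GC content in the day 4 difference of a single gene was not tested.

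**Figure D4:**
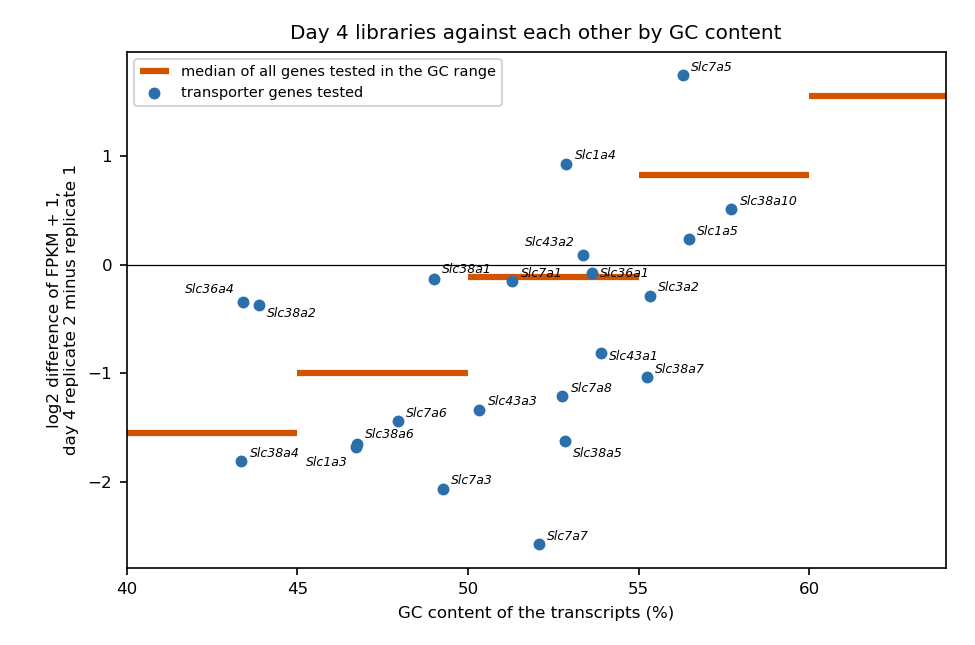
Log2 difference of FPKM + 1 between the day 4 libraries, replicate 2 minus replicate 1, against GC content in percent, for the 22 transporter genes tested (points) and as the median of all genes tested in each GC range (bars). The bars climb with GC content, 17 of the 22 points lie below 0, and Slc7a7 and Slc7a5 are the lowest and the highest point.

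Plasma membrane carriers outside these families were also mixed in direction. Of 12 carriers of the plasma membrane in the SLC6 and SLC16 families, 3 were tested. Slc6a6, the taurine carrier, was at 52.5 and 62.0 FPKM at day 6, against 35.5 and 36.1 FPKM at day 4, and Slc6a9 (GlyT1), a glycine carrier, at 1.74 and 2.25 FPKM at day 6, against 1.19 and 1.33 FPKM at day 4. Slc16a10 (TAT1), the aromatic amino acid carrier, was at 1.86 and 1.54 FPKM at day 6, against 4.90 and 7.43 FPKM at day 4. After centring 0 of these 3 were higher and 1 was lower, beside 20.3% and 26.4% of all genes tested. Slc16a10 is the 1 whose day 6 values lie below both day 4 values, with a log2 difference of -1.39 and a standard error of 0.43 (limma, adjusted p = 0.294). Of 9 mitochondrial carriers 6 were tested, of which 4 were higher and 0 lower without overlap, beside 41.6% and 11.5% of all genes tested. Their median log2 difference was 0.50, beside 0.51 for all genes. After centring 1 was higher and 1 lower, beside 20.3% and 26.4% of all genes. The GC correction also left 1 higher and 1 lower, beside 27.3% and 27.8%. Slc25a13 (citrin), an aspartate and glutamate carrier, was at 14.8 and 13.8 FPKM at day 6, against 9.64 and 11.8 FPKM at day 4.

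The genes of the ATF4 response went in both directions, with a median below that of all genes tested. All 20 listed target and pathway genes of ATF4 were tested. Among them 2 (Nupr1 and Aldh18a1) were higher and 4 (Atf3, Shmt2, Mthfd2 and Stc2) lower without overlap, beside 41.6% higher and 11.5% lower of all genes tested. The median log2 difference was -0.02, beside 0.51 for all genes. Atf4 itself was at 57.1 and 81.1 FPKM at day 6, within the 44.2 and 123 FPKM of day 4, and Phgdh, the first enzyme of serine synthesis, at 100.3 and 98.1 FPKM at day 6, within the 62.3 and 139 FPKM of day 4. Eif4ebp1, an inhibitor of translation initiation and ATF4 target, was at 241 and 207 FPKM at day 6, against 100.1 FPKM in day 4 replicate 1 and 1476 FPKM in day 4 replicate 2. Ddit4, an inhibitor of mTORC1, was at 77.3 and 52.1 FPKM at day 6, against 60.8 and 35.7 FPKM at day 4. The list's median turned on the day 4 library used, at 0.30 without day 4 replicate 2 and -0.54 without day 4 replicate 1. All genes tested had medians of 0.37 and 0.66 in these fits. After centring 1 was higher and 6 lower, beside 20.3% and 26.4% of all genes, with a median of -0.65. After the GC correction 2 were higher and 8 lower, beside 27.3% and 27.8%, with a median of -0.43. Of 19 tested cytosolic aminoacyl-tRNA synthetases, which charge tRNAs with amino acids, 4 (Farsb, Kars, Qars and Wars) were higher and 5 (Cars, Dars, Hars, Sars and Tars) lower without overlap. All genes tested had 41.6% and 11.5%. The median of the list was 0.03, but -0.33 without day 4 replicate 2 and 0.42 without day 4 replicate 1. Beside these, the medians of all genes were 0.51, 0.37 and 0.66. After centring 1 was higher and 10 lower, beside 20.3% and 26.4% of all genes, with a median of -0.60. After the GC correction 1 was higher and 10 lower, beside 27.3% and 27.8%, with a median of -0.52.

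A list of amino acid sensing genes upstream of mTORC1, with parts of mTORC1 itself among them, had 19 tested genes. It joins activators and inhibitors, so its counts give no direction of the pathway. Of these, 12 were higher and 1 (Rragb) lower without overlap, beside 41.6% and 11.5% of all genes, with a median of 0.82 beside 0.51. After centring 9 were higher and 2 lower, beside 20.3% and 26.4%, with a median of 0.19 beside -0.12. Lamtor2, a subunit of the lysosomal Ragulator complex, was at 82.8 and 94.8 FPKM at day 6, against 61.8 and 62.2 FPKM at day 4. Lamtor1, its partner in that complex, was at 140 and 97.7 FPKM at day 6, against 66.9 and 137 FPKM at day 4, which overlap. Among 14 tested genes of glutamine, glutathione and threonine metabolism, 7 were higher and 3 lower without overlap, beside 41.6% and 11.5% of all genes. The median of this list was 0.50, beside 0.51 for all genes. Without day 4 replicate 1 it was 0.04, beside 0.66. After centring 2 were higher and 5 lower, beside 20.3% and 26.4% of all genes, with a median of -0.13. After the GC correction 3 were higher and 5 lower, beside 27.3% and 27.8%, with a median of 0.04. Got2, the mitochondrial aspartate aminotransferase, was at 132 and 135 FPKM at day 6, against 60.9 and 33.7 FPKM at day 4, and Glul, glutamine synthetase, at 72.3 and 103 FPKM at day 6, against 64.2 and 31.8 FPKM at day 4.

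**Figure D5:**
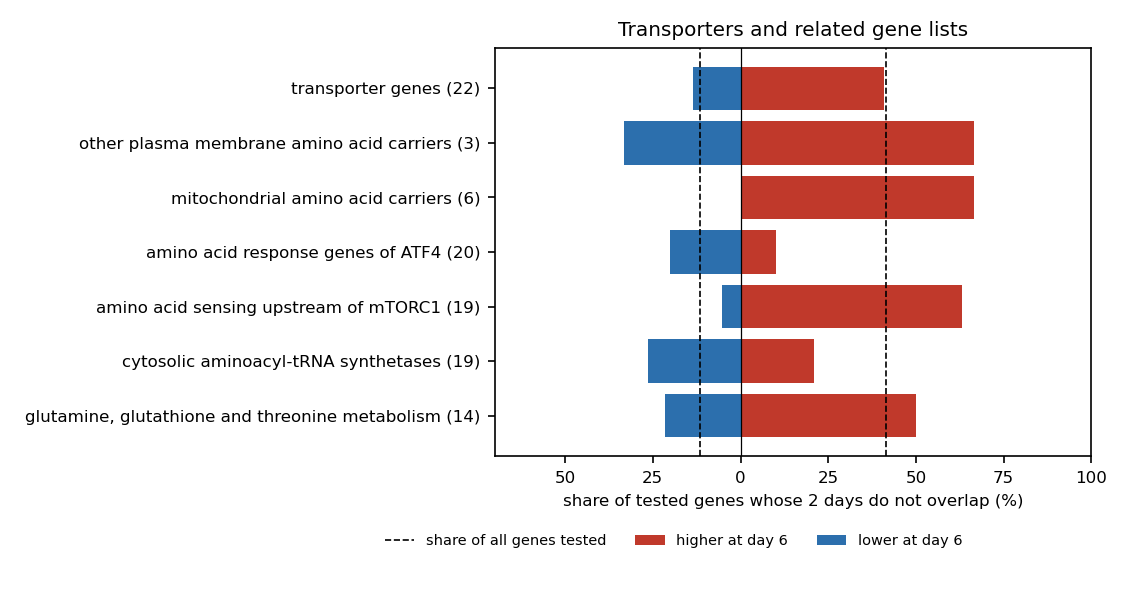
Share, in percent, of the tested genes of each list that were higher (red, to the right) or lower (blue, to the left) in each day 6 library than in either day 4 library; the number of genes tested is in brackets and dashed lines mark the share of all genes tested, 41.6 and 11.5%. The bars of the transporter genes end near both lines, while the red bar of the ATF4 list, 2 of 20 genes, ends short of its line.

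Markers of several cell types were set beside these values. For the counts given before centring, the background shares without overlap were 41.6% (higher) and 11.5% (lower) among the 11716 genes. The endoderm list had 7 of 8 tested genes higher without overlap and a summed level of 358 and 332 FPKM at day 6, against 71.7 and 91.9 FPKM at day 4, with Afp at 0 in all 4 libraries and Ttr and Apoa1 at 0 at day 4. The mesenchyme list had 6 of 8 higher, with sums of 431 and 605 FPKM at day 6, against 222 and 545 FPKM at day 4, and Postn, Lum and Dcn at 0 at day 4. Most of this sum was Vim, at 273 and 310 FPKM at day 6, against 210 and 535 FPKM at day 4, which overlap. The endothelial and erythroid list had 9 of 9 higher, with sums of 195 and 752 FPKM at day 6, against 5.10 and 1.57 FPKM at day 4, and the globin genes Hbb-bh1, Hba-x and Hbb-y and the factor Gata1 at 0 at day 4. The trophoblast list had 5 of 9 higher and 1 (Eomes) lower, with sums of 2260 and 1614 FPKM at day 6, against 627 and 1308 FPKM at day 4, and Elf5 and Plac1 at 0 at day 4. Most of this sum was Krt8, at 1803 and 993 FPKM at day 6, against 436 and 1067 FPKM at day 4, which overlap. The embryonic stem cell and epiblast list had 6 of 9 lower and 2 (Zfp42 and Esrrb) higher, with sums of 257 and 261 FPKM at day 6, against 789 and 1010 FPKM at day 4. Of the neural list 3 genes were tested, of which 2 (Nes and Neurod1) were lower, with sums of 31.4 and 13.1 FPKM at day 6, against 152 and 98.2 FPKM at day 4, and Fabp7 and Olig2 at 0 at day 6. After centring, 6 endoderm, 6 mesenchyme, 8 endothelial and erythroid and 5 trophoblast genes were higher, beside 20.3% of all genes tested. In the embryonic stem cell and epiblast list 1 was then higher. Lower after centring were 2 trophoblast, 6 embryonic stem cell and epiblast and 2 neural genes, beside 26.4% of all genes tested. The part of these cell types in the differences of Slc38a4, Slc38a7, Slc7a8 or Slc7a3 was not tested.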

How the data were processed

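Per the labels' protocols, poly(A) RNA was made into stranded TruSeq libraries. CASAVA and TopHat2 2.0.11 with genome build mm10 are named in the submitters' processing notes. The quantifier, the annotation and the use of strand were not given in the sources used here. The authors deposited 1 table of 35656 transcripts per library with FPKM, its lower and upper bound, and a coverage signal, which was used only to describe depth. In 365 to 647 rows per library, none of them a transporter row, the FPKM lies outside its own bounds. No counts are given, so depth was estimated from rows over 5 FPKM, taking the bounds as 2 Poisson standard deviations to each side.

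Transcripts were named by ID from RefSeq (GRCm38.p6) and GENCODE M21 (95.4% of rows), and FPKM was summed per symbol. A filter of 1 FPKM on the mean was applied, and genes were tested on log2(FPKM + 1) with limma 3.58.1 in R 4.3.3 (moderated two-sided test with an intensity trend, p-values adjusted by Benjamini-Hochberg over 11716 genes), day 6 minus day 4, with no replicate block, and the step was tested on simulated data. GC content came from GENCODE transcripts. Every transporter gene at a mean of 1 FPKM or more is named, and of each related list up to 4 genes by mean level; genes named because few fell on one side of a count, and Slc7a11, Slc38a9, Slc1a1 and Slc3a1, were chosen after their values were seen. The value of 1 gene of a related list is not reported here. The members and lists were chosen with earlier results of these data known. Alternatives were the pseudocount, the filter, 2 scalings, a GC correction, the highest transcript, the trend, the replicate block and each library left out.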

Additional observations from a re-analysis of the deposited data

How the results depend on the processing

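Of the 22 transporter genes tested, 12 kept the sign of their log2 difference under every alternative and without any 1 library, 9 of them higher at day 6 and 3 lower. No transporter gene was called under any alternative that kept all 4 libraries. With a replicate block 67 of all genes were called and no transporter gene. The replicate numbers are shared by the days but tied to nothing in the labels, and the differences between replicates 1 and 2 of the days correlated at -0.0903 across genes. Leaving out 1 library gave 0 to 7837 calls among all genes and 0 to 14 among transporter genes, the high values coming from fits with 1 day 4 library (7837 and 14 without replicate 1, 6081 and 7 without replicate 2), which is then assumed to vary like the day 6 pair. It gave 11 to 14 genes higher and 3 to 6 lower without overlap, beside 45.1 to 65.0% and 13 to 32% of all genes. The median of the transporter genes was 0.28 to 1.06, beside 0.37 to 0.66 for all genes. Without day 4 replicate 2 it was 0.28, beside 0.37. The highest count, 14, came without day 4 replicate 1, where 65.0% of all genes were higher. The median of the transporter genes was 0.90 with a pseudocount of 0.1 FPKM, 0.23 with no filter, 0.15 with a filter of 5 FPKM (4 of 13 genes then higher without overlap, since fewer were tested), 0.33 with the highest transcript, -0.0045 after centring and -0.11 after the GC correction. Centring gave 5 and the GC correction 6 genes lower without overlap. The 6 that stayed higher after centring, and the 6 after the GC correction, were all among the 9.

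Differences changed sign after centring for Slc1a3 (-0.13), Slc1a4 (-0.53), Slc1a5 (-0.47), Slc36a1 (-0.42), Slc38a1 (-0.094), Slc38a10 (-0.62) and Slc38a5 (-0.39). After the GC correction they did so for Slc1a3 (-0.23), Slc1a4 (-0.56), Slc1a5 (-0.24), Slc36a1 (-0.41), Slc38a1 (-0.20), Slc38a10 (-0.29), Slc38a5 (-0.42) and Slc7a6 (-0.019). On the TPM scale Slc38a10 was at -0.034, and with the highest transcript Slc38a1 was at -0.10 and Slc38a10 at -0.013. Leaving out 1 library took Slc1a3 to between -0.34 and 1.33, Slc1a4 to between -0.37 and 0.56, Slc36a1 to between -0.041 and 0.45, Slc38a10 to between -0.25 and 0.27, Slc38a5 to between -0.57 and 1.05, Slc7a5 to between -1.50 and 0.24, Slc7a6 to between -0.0060 and 1.43 and Slc7a7 to between -0.46 and 2.12. The cause of these changes was not tested. Both day 4 libraries have a lower estimated depth than the day 6 libraries, which limits the precision of low values there. Between the day 4 libraries depth was nearly equal, and why several genes are listed at 0 in replicate 2 was not tested.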
